A study of Mus musculus with 6 samples.

Results

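The genes that build, cut, protect and crosslink the extracellular matrix were compared between Zip13-KO mice and wild-type (WT) littermates in inguinal fat (iWAT), a subcutaneous white depot. They were chosen by gene symbol: the matrix metalloproteinases (Mmp), the tissue inhibitors of metalloproteinases (Timp), the ADAMTS proteases and ADAMTS-like proteins, the lysyl oxidases (Lox and Loxl), the lysyl hydroxylases (Plod), the alpha subunits of prolyl 4-hydroxylase (P4ha), and Serpinh1, Bmp1 and Pcolce. The symbols gave 65 genes, of which 64 had at least 1 array probe (90 probes in all). A gene was tested when it had a probe well above local background throughout the 3 arrays of either genotype, and 50 of the 65 genes met this, of 15307 genes tested in all. Mmp27 had no probe matched to it here. The other 14, Mmp1a, Mmp1b, Mmp10, Mmp13, Mmp16, Mmp20, Mmp21, Mmp24, Mmp28, Adamts3, Adamts18, Adamts19, Adamts20 and Adamtsl3, were too dim, and 9 of these 14 were well above background on 0 of the 6 arrays.

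Collagen is made as procollagen in the endoplasmic reticulum, where prolyl and lysyl hydroxylases modify it and the chaperone HSP47, encoded by Serpinh1, binds the folded helix. Outside the cell, Bmp1 and ADAMTS enzymes trim the propeptides, and lysyl oxidases crosslink the fibres through oxidized lysines. MMPs are zinc-dependent proteases that cleave matrix proteins, TIMPs block their active site, and in adipose tissue most of these proteins come from stromal cells, macrophages and adipocytes.

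Each of the 6 arrays carried iWAT RNA, 3 from WT and 3 from Zip13-KO mice, aged 10 weeks by the study's description of its array heat map. The mice were on a C57BL/6J background, and all of them, WT included, ate powdered food because the knockout has missing teeth. The knockout is carried in the whole body, not in fat alone: a Neo cassette replaces exons 6 to 8 of Slc39a13, the gene of the zinc transporter ZIP13, so the skin, skeleton and other tissues also lack it. The sex of the mice is not given in the sources used here, and the labels do not say whether each array holds RNA of a single mouse, so the p-values measure the spread between these samples.

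Slc39a13 was read first, as a check of the labels. The probe for transcript NM_001290765 gave a normalized log2 intensity of 11.29, 10.87 and 10.72 on the WT arrays and 6.76, 6.66 and 6.47 on the Zip13-KO arrays, which is -4.33 in log2 fold change (SE 0.17, adjusted p = 0.00128, where SE is the standard error of the fit). The groups do not overlap. Whether the probe lies within the deleted exons was not determined. On the 6 arrays, 58.8% to 63.2% of the spots were well above background, with no saturated spot, and correlations between arrays ran from 0.986 to 0.993 within WT, 0.994 to 0.995 within Zip13-KO and 0.960 to 0.984 between genotypes. All 10 listed adipocyte genes were tested, and their summed level was 19.15 to 19.49 on the WT arrays and 19.67 to 19.72 on the Zip13-KO arrays (log2).

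Of the matrix genes that passed the test, all but Mmp15 were lower in Zip13-KO iWAT, among them the inhibitor Timp1 and the macrophage elastase Mmp12. Mmp12 entered through its WT arrays only, so its call rests on Zip13-KO values that were not well above background. Of the 50 genes tested, 8 were called lower: Timp1, Mmp12, Mmp3, Loxl4, Mmp19, Mmp25, Timp2 and Adamts13. Mmp15, a membrane-bound MMP, was the 1 gene called higher, and 41 were not called. To be called, a gene had to pass both an adjusted p of 0.05 and a fold threshold of 0.58 in log2 (1.5-fold). These shares stand beside those of all genes on the array: 8.38% of the 15307 genes were called lower, against 16% of the matrix genes, and 10.3% were called higher. In either direction, 18.7% of all genes were called.

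The median log2 fold change of the 50 genes was -0.49, with 38 below 0 and 12 above 0, and the median of all genes tested was -0.00. On 19 of the 50 every Zip13-KO array was below every WT array (38%), where 25.9% of all genes were so placed, and on 3 (6%) every Zip13-KO array was above, where the background was 29.2%. The other 28 overlapped. At an unadjusted p under 0.05 in limma, 16 of the 50 were lower and 3 higher, where 3341 of all 15307 genes were lower and 3876 higher. Because the arrays measured whole tissue, fewer cells of a type and less RNA per cell cannot be told apart in any of these values.

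**Figure D1:**
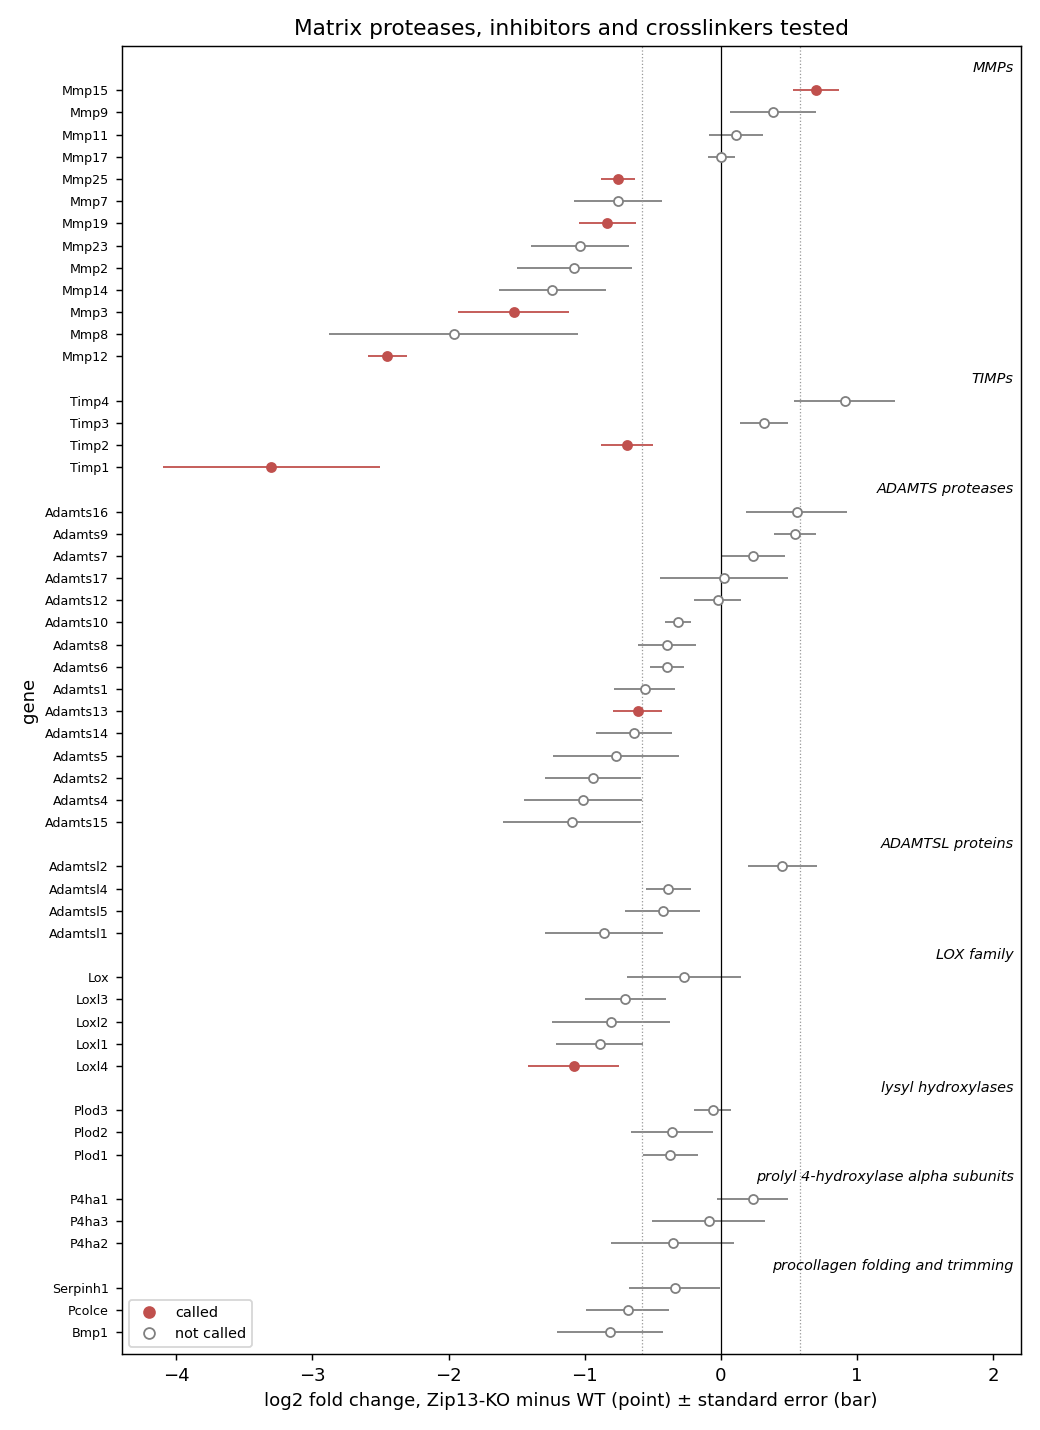
The log2 fold change (Zip13-KO minus WT, horizontal axis) of each of the 50 genes tested, grouped by class, with its standard error as a bar and filled points for called genes. Dotted lines mark a change of 0.58 in either direction; Timp1 is at -3.30, the point of Mmp12 is no measured fold because its Zip13-KO level was not well above background, and Mmp15 at 0.70 is the filled point on the right.

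The stromelysin Mmp3, which cleaves proteoglycans, fibronectin and basement membrane and activates other MMPs, and the elastase Mmp12, made chiefly by macrophages, were the called members of an MMP gene cluster on chromosome 9. Mmp3 had log2 intensities of 14.28, 13.08 and 12.67 on the WT arrays and 11.84, 11.57 and 12.04 on the Zip13-KO arrays, so that every Zip13-KO array was below the lowest WT array. It fell by 1.52 in log2 (SE 0.41, adjusted p = 0.0335), a ratio of 2.87 of WT over Zip13-KO. The call was lost when WT replicate 2 or any Zip13-KO replicate was left out (adjusted p = 0.0589 to 0.102).

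Mmp12 read 5.54, 5.93 and 5.62 in WT and 3.39, 3.03 and 3.30 in Zip13-KO. The WT arrays lay close together and all 3 were well above background, while in Zip13-KO it was well above background on 0 of 3 arrays. The measured means were 5.69 ± 0.21 (SD, n = 3) and 3.24 ± 0.19 (SD, n = 3). Since the lower level was not well above background, a bound on the background-subtracted signal is given instead, 3.95-fold lower in the knockout. It is not a minimum, because with other background treatments the ratio of WT over Zip13-KO was 1.52 to 1.82. The bound sets the WT mean against the lowest signal that counts as well above background on each Zip13-KO array. The fit gave an adjusted p of 0.00276, which, like the size of the difference, rests on Zip13-KO values that were not well above background. Mmp12 entered the test through the WT arrays alone. Its other probe was not well above background on any array and was not kept. Without background correction the difference was -0.86, as in the table of values the authors deposited, and with normexp background correction it was -0.60.

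The cluster holds 10 MMP genes in a row on chromosome 9, in the order Mmp13, Mmp12, Mmp1b, Mmp3, Mmp1a, Mmp10, Mmp8, Mmp27, Mmp20 and Mmp7, with no other protein-coding gene between them in the RefSeq annotation. Of these, 4 were tested and 2 were called lower, and 5 were not well above background. The neutrophil collagenase Mmp8 had the widest spread: 5.84, 5.59 and 5.60 in WT and 1.51, 4.42 and 5.21 in Zip13-KO. All 3 Zip13-KO values were lower than in WT, but the array at 1.51 was not well above background, and the fitted difference of -1.96 was not called (SE 0.91, adjusted p = 0.14). Mmp8, too, entered the test through the WT arrays alone. Without background correction, as in the table the authors deposited, its difference was -0.66 and was called lower (adjusted p = 0.0313 and 0.032). These 2 were the only calls of Mmp8 in 17 alternatives, over which its difference ranged from -4.17 to -0.51. Mmp7, matrilysin, an epithelial MMP, read 4.71, 5.21 and 4.92 in WT and 3.71, 3.96 and 4.91 in Zip13-KO (-0.75, adjusted p = 0.116). Its groups overlapped through Zip13-KO replicate 3, and without that array it was called lower (-1.11, adjusted p = 0.0245). That was the only call of Mmp7 in 18 alternatives, over which its difference ranged from -1.24 to -0.14.

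The start regions of these genes were searched for 2 short motifs on both strands in the 300 bases around each start (250 before, 50 after), for the 44 genes with a promoter entry in the RefSeq table (47 windows, build GRCm38.p6). The AP-1 motif, TGAGTCA or TGACTCA, which Fos and Jun dimers bind, was in 7 of the 47 windows (14.9%) and in 5.2% of all 32851 windows, and the 7 genes, Mmp1a, Mmp1b, Mmp3, Mmp7, Mmp10, Mmp12 and Mmp13, are all in the chromosome 9 cluster. The TATA motif, TATAAA or TTTATA, was in 14 windows (29.8%), against 13.6% of all. Only 3 of the 7 genes with the AP-1 motif could be tested on these arrays: Mmp3 and Mmp12, called lower, and Mmp7, not called. The 120 bases before the start are shown for these 3, and for Timp1 and Mmp15, called lower and higher and in neither the cluster nor the list of matches. The plus strand is printed, and all 5 genes lie on it. Capitals mark the AP-1 and TATA motifs. A match is a run of letters and not a measured binding site.
Mmp3 (chr9:7445702-7445821): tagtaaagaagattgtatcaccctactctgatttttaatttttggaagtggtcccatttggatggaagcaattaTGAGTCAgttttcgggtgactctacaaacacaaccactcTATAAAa
Mmp12 (chr9:7347254-7347373): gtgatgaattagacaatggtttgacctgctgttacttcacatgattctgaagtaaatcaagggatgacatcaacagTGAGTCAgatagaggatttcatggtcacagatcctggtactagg
Mmp7 (chr9:7691970-7692089): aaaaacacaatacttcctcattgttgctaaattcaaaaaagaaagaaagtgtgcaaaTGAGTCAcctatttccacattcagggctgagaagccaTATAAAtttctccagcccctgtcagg
Timp1 (chrX:20870046-20870165): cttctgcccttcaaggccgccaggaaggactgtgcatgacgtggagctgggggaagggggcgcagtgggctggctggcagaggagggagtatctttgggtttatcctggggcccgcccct
Mmp15 (chr8:95352176-95352295): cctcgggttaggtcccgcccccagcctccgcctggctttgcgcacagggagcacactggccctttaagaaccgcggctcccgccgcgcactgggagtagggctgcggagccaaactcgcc

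The AP-1 motif begins 46 bases before the start in Mmp3, 44 in Mmp12 and 63 in Mmp7. Mmp12 and Mmp7 each have another start in the table, whose window holds neither motif.

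Outside the cluster, Mmp19 and Mmp25 were called lower. Mmp19, which is found in many tissues and cleaves basement membrane proteins, read 8.85, 8.91 and 8.15 in WT and 7.87, 7.75 and 7.79 in Zip13-KO. WT replicate 3 was the WT array nearest to the Zip13-KO arrays, and the groups did not overlap (-0.83, SE 0.21, adjusted p = 0.0273). The call was kept without WT replicate 3 and lost without any other single array (adjusted p = 0.0647 to 0.0841).

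Mmp25, a membrane-anchored MMP known from neutrophils, was even within each genotype: 5.69, 6.00 and 6.07 in WT and 5.03, 5.19 and 5.28 in Zip13-KO. The groups were apart, and the difference of -0.75 (SE 0.13, adjusted p = 0.01) was called whichever array was left out. It was below the fold threshold with other background corrections (-0.44 with the table the authors deposited, -0.36 with normexp).

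Mmp15, also called MT2-MMP, is anchored in the cell membrane. It was the only MMP called higher, with 6.23, 6.77 and 6.59 in WT and 7.43, 7.21 and 7.05 in Zip13-KO. The lowest Zip13-KO array was above the highest WT array. Mmp15 rose by 0.70 in log2 (SE 0.17, adjusted p = 0.0246), a ratio of 1.63. It passed without WT replicate 2, WT replicate 3 or Zip13-KO replicate 3, and not without WT replicate 1 (0.55, under the fold threshold), Zip13-KO replicate 1 (adjusted p = 0.0822) or Zip13-KO replicate 2 (adjusted p = 0.0729). With other background corrections the rise was 0.47 to 0.51, also under the threshold.

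The remaining MMPs were not called. Mmp14 (MT1-MMP), the membrane-bound collagenase that activates proMMP2, lay just outside the threshold: 10.90, 9.86 and 9.34 in WT and 8.85, 8.55 and 8.99 in Zip13-KO, a difference of -1.24 (SE 0.39, adjusted p = 0.0531). The genotypes did not overlap, and Mmp14 was called lower without WT replicate 1 (-0.80, adjusted p = 0.0395) and without WT replicate 3 (-1.59, adjusted p = 0.0259). Its substrate Mmp2, gelatinase A, had 14.07, 12.99 and 12.33 in WT and 12.09, 11.84 and 12.22 in Zip13-KO (-1.08, adjusted p = 0.0946). Mmp23 gave -1.03 (adjusted p = 0.0693). For both, every Zip13-KO array was below every WT array. Mmp9, gelatinase B, gave 7.22, 8.14 and 7.70 in WT and 8.32, 7.52 and 8.36 in Zip13-KO, with overlapping groups (0.38, adjusted p = 0.376). Mmp11 and Mmp17 were near 0 (0.11 and 0.00). In all, 4 of the 13 MMPs tested were called lower and 1 higher, with a median of -0.83.

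The 4 TIMPs divided: Timp1 and Timp2 were called lower, and Timp3 and Timp4 had values above 0 that were not called. Timp1, the secreted inhibitor of most MMPs, had a large difference and a wide spread within WT. It read 13.27, 11.25 and 9.91 on the WT arrays and 8.23, 7.95 and 8.34 on the Zip13-KO arrays. The WT arrays themselves covered a range of over 3 log2 units, while the Zip13-KO arrays lay within 0.4 of each other, and the lowest WT array was still above them all. The fitted change was -3.30 (SE 0.80, adjusted p = 0.0248), a 9.87-fold ratio of WT over Zip13-KO. Its size depended on single WT arrays: the change was -2.41 (5.30-fold) without WT replicate 1 and -4.09 (17.0-fold) without WT replicate 3. The call was kept without WT replicate 1 or WT replicate 3, and lost without WT replicate 2 or any Zip13-KO replicate (adjusted p = 0.0549 to 0.0775).

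Timp2, which inhibits MMPs and also takes part in the activation of proMMP2 by Mmp14, read 16.34, 16.06 and 15.58 in WT and 15.34, 15.30 and 15.27 in Zip13-KO. The Zip13-KO arrays were nearly equal, and all were below the WT arrays. It fell by 0.69 (SE 0.19, adjusted p = 0.0363). Its second kept probe gave -1.22, in the same direction. The call was kept without WT replicate 3 and was lost without WT replicate 1 (-0.52, adjusted p = 0.0561) or any other array (adjusted p = 0.0909 to 0.0986).

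Timp3, which is bound to the matrix and also inhibits ADAM and ADAMTS proteases, read 12.62, 12.92 and 13.24 in WT and 13.06, 13.32 and 13.35 in Zip13-KO (0.32, adjusted p = 0.204), with overlap. Timp4 read 9.47, 10.67 and 10.94 in WT and 11.21, 11.28 and 11.32 in Zip13-KO. Its Zip13-KO arrays were all above the WT arrays, and WT replicate 1 stood well below the other WT arrays. The difference of 0.91 was the largest above 0 among the 50 genes and was not called (SE 0.37, adjusted p = 0.103). The median of the 4 TIMPs was -0.19.

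**Figure D2:**
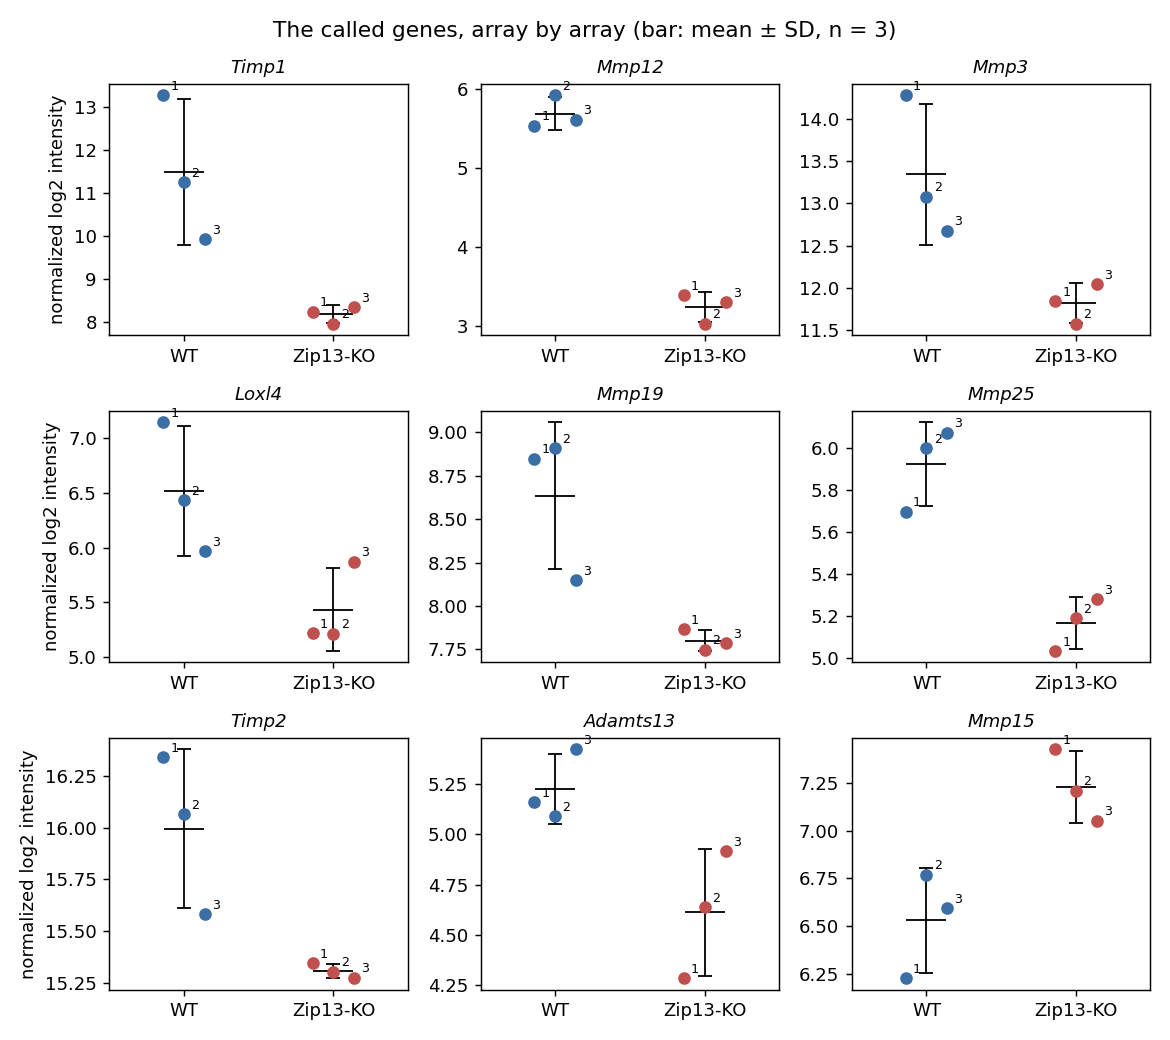
Normalized log2 intensity of the 9 called genes on each array (points, numbered by replicate; WT left, Zip13-KO right, vertical scales differ and do not start at 0), with the mean and SD of the 3 arrays. Among the WT points, Timp1, Mmp3, Loxl4 and Timp2 are highest on replicate 1 and lowest on replicate 3, the Zip13-KO points of Mmp12 are not well above background, and Mmp15 is the only gene with higher Zip13-KO points.

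ADAMTS proteases carry thrombospondin repeats and cleave proteoglycans, procollagens or, for Adamts13, von Willebrand factor. Adamts13 was the 1 called gene of the 15 tested: 5.16, 5.09 and 5.42 in WT and 4.29, 4.64 and 4.92 in Zip13-KO. The groups were apart by a small gap, and the change of -0.61 was just past the fold threshold (SE 0.18, adjusted p = 0.0439). The call was kept without Zip13-KO replicate 3 and lost without any other array (adjusted p = 0.0679 to 0.107), and the deposited table gave -0.23 and normexp -0.18.

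Adamts9, a proteoglycan-cleaving enzyme, lay just inside the p threshold and just outside the fold threshold. It read 8.60, 8.98 and 9.15 in WT and 9.59, 9.39 and 9.38 in Zip13-KO, with all Zip13-KO arrays higher (0.55, SE 0.16, adjusted p = 0.0396). Adamts10 also had an adjusted p under 0.05, with a small difference in the other direction (-0.32, adjusted p = 0.0462), and Adamts6 missed both thresholds (-0.40, adjusted p = 0.0527). The procollagen N-proteinase Adamts2 read 14.25, 13.27 and 12.83 in WT and 12.54, 12.34 and 12.66 in Zip13-KO, without overlap (-0.94, adjusted p = 0.0849). With the mean of its probes in place of the brightest, Adamts2 was called lower (-1.14, adjusted p = 0.048).

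Unlike Adamts9, other proteoglycan-cleaving members had values below 0. Adamts15 gave the lowest value of the class (-1.09, adjusted p = 0.139), Adamts4 -1.01 (adjusted p = 0.116), Adamts5 -0.77 (adjusted p = 0.234) and Adamts1 -0.56 (adjusted p = 0.101). The second kept probe of Adamts5 gave -0.25. Adamts15, Adamts4, Adamts5 and Adamts1 all overlapped between genotypes, with WT replicate 3 within or below the range of the Zip13-KO arrays. Adamts16 had the highest value of the class, 0.56 (adjusted p = 0.276). The 2 kept probes of Adamts8 differed in sign, -0.40 for the brighter and 0.44 for the other, so no direction is given. The class had a median of -0.40, with 11 of 15 below 0.

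ADAMTS-like proteins resemble ADAMTS enzymes without the protease domain and bind to microfibrils and other matrix proteins. Of the 4 tested, 0 were called by limma, and 0 passed an unadjusted p under 0.05 in limma or in the methods' t-test (a component of the study's own combined test, run by itself). Adamtsl1 was lowest (-0.86, adjusted p = 0.167), Adamtsl4 gave -0.39 (adjusted p = 0.116) and Adamtsl2 was highest, at 0.45 (adjusted p = 0.207), with 2 of 3 WT arrays well above background. All 4 overlapped between genotypes.

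The 5 lysyl oxidases, copper enzymes that start the crosslinking of collagen and elastin, all had values below 0, and Loxl4 was called lower. Loxl4 read 7.14, 6.43 and 5.97 in WT and 5.22, 5.21 and 5.87 in Zip13-KO. Zip13-KO replicate 3 came within 0.1 of WT replicate 3 without overlapping it. The change was -1.08 (SE 0.33), at an adjusted p of 0.0498 that lay against the threshold, and a second kept probe gave -1.44. With the mean of these probes in place of the brightest, Loxl4 was not called (-1.26, adjusted p = 0.0548). The methods' t-test gave it an unadjusted p of 0.0564. Without WT replicate 3 the call was kept, and without any other array it was lost (adjusted p = 0.055 to 0.143).

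Loxl1, which is required for elastic fibres, read 13.56, 12.93 and 12.28 in WT and 12.04, 11.83 and 12.22 in Zip13-KO, with the groups apart by a narrow margin (-0.89, adjusted p = 0.0745). Loxl2 gave -0.81 (adjusted p = 0.191) and Loxl3 -0.70 (adjusted p = 0.115). Lox itself read 9.36, 7.70 and 8.00 in WT and 8.19, 8.06 and 8.01 in Zip13-KO. Only WT replicate 1 was above all the Zip13-KO arrays. The difference was -0.27 (adjusted p = 0.643), and without that array it was 0.23. The class median was -0.81.

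The enzymes that modify procollagen inside the cell were not called. The lysyl hydroxylases Plod1, Plod2 and Plod3, which supply the hydroxylysines for crosslinks and for sugars, gave -0.37 (adjusted p = 0.193), -0.36 (adjusted p = 0.383) and -0.06 (adjusted p = 0.749). Plod1 was lower on every Zip13-KO array, at 9.54, 8.81 and 8.86 in WT and 8.75, 8.65 and 8.69 in Zip13-KO, by a small margin. The alpha subunits of prolyl 4-hydroxylase, the enzyme whose product stabilizes the triple helix, gave 0.23 for P4ha1 (adjusted p = 0.516), -0.35 for P4ha2 (adjusted p = 0.569) and -0.09 for P4ha3 (adjusted p = 0.881), and all overlapped. P4ha2 read 12.32, 10.93 and 10.48 in WT and 10.97, 10.92 and 10.78 in Zip13-KO, where the WT spread exceeded the difference. For both classes, limma and the methods' t-test gave 0 genes with an unadjusted p under 0.05.

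Serpinh1 (HSP47) read 14.48, 13.38 and 13.40 in WT and 13.64, 13.55 and 13.05 in Zip13-KO (-0.34, adjusted p = 0.456). Only WT replicate 1 stood above the rest. Bmp1, the procollagen C-proteinase, and Pcolce, its enhancer, gave -0.81 (adjusted p = 0.148) and -0.69 (adjusted p = 0.128). Pcolce read 16.12, 15.32 and 14.92 in WT and 14.84, 14.54 and 14.92 in Zip13-KO, so WT replicate 3 and Zip13-KO replicate 3 were level. None of these 3 had an unadjusted p under 0.05 in limma or in the methods' t-test. Without WT replicate 1, Serpinh1, Plod3, P4ha2 and P4ha3 had values above 0 (0.02 to 0.32).

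The WT arrays differed among themselves in these genes more than the Zip13-KO arrays did. The SD within WT was the larger for 43 of the 50 genes (86%) and for 68.9% of all genes, and its median was 0.56 in WT and 0.19 in Zip13-KO (0.16 and 0.10 over all genes). WT replicate 1 was the highest WT array for 37 of the 50 (74%, all genes 35.8%), and WT replicate 3 the lowest for 30 (60%, all genes 31%). With the WT mean of each gene set to 0, the median of the 50 genes was 0.52, -0.10 and -0.43 on WT replicates 1 to 3 and -0.55, -0.59 and -0.42 on the Zip13-KO arrays. WT replicate 3 was thus at the level of the Zip13-KO arrays in this median, but not in every class. The median of the 13 MMPs was 0.16, -0.08 and -0.08 on the WT arrays and -1.04, -0.98 and -0.64 on the Zip13-KO arrays. The median of the 4 TIMPs (0.02, 0.03 and -0.05 against -0.26, -0.15 and -0.15) cannot show this, because 2 were below 0 and 2 above. In each of the 4, WT replicate 3 was the WT array nearest to the Zip13-KO arrays. The counts depended on single arrays. Without WT replicate 3, 21 matrix genes were called lower and 2 higher, where 1455 of all 15307 genes were lower and 1632 higher. The 15 matrix genes gained included Adamts4 (-1.47), Adamts5 (-1.31), Adamts2 (-1.25), Loxl1 (-1.21), Loxl2 (-1.23), Mmp2 (-1.48), Bmp1 (-1.18) and Pcolce (-0.95). Without WT replicate 1, 6 were called lower and 0 higher (all genes 1144 and 1233). Without WT replicate 2 there were 2 lower and 1 higher (all genes 1154 and 1671). Without Zip13-KO replicates 1, 2 and 3 there were 2, 2 and 4 lower (all genes 782, 791 and 1051). The counts higher were then 0, 0 and 1 (all genes 961, 1027 and 1291). Without WT replicate 2, Zip13-KO replicate 1 or Zip13-KO replicate 2, the share of matrix genes called lower was below that of all genes.

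**Figure D3:**
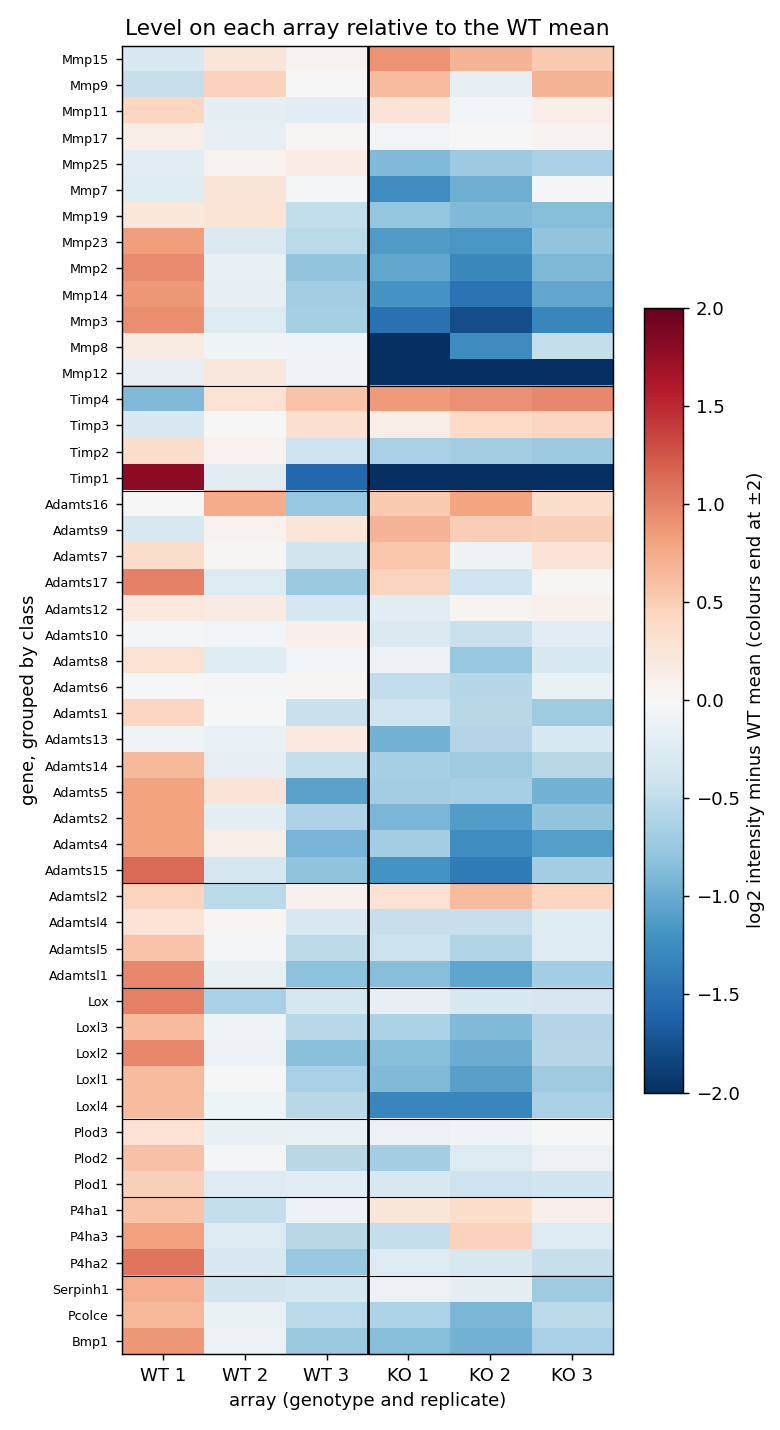
Level of the 50 genes on each of the 6 arrays, as log2 intensity minus the WT mean of the gene (red above, blue below, colours end at 2 in either direction), ordered by class. The WT replicate 1 column is mostly red and the WT replicate 3 column mostly blue, like the 3 Zip13-KO columns, whose medians are -0.55, -0.59 and -0.42.

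Marker genes of stromal cells, macrophages and neutrophils had medians below 0 in Zip13-KO. Over all genes tested, 8.38% were called lower and 10.3% higher. Of the 12 stromal progenitor and fibroblast genes, all tested, 4 were called lower (Dpp4, Ly6a, Pdgfra and Thy1) with a median of -0.68, and their summed level was 18.89, 18.34 and 17.84 on the WT arrays and 17.75, 17.61 and 17.90 on the Zip13-KO arrays. This is the same order of WT arrays as for the matrix genes. The stromal list itself holds genes of matrix proteins, such as Col1a1, Col3a1, Dcn and Lum. A summed level is weighted to the brightest genes, so this order is not that of cell markers alone. Of the 12 macrophage genes, 9 were called lower (median -1.31), and the summed level was 17.39, 16.91 and 16.67 in WT, again in the same order, and 15.56 to 15.99 in Zip13-KO. Of the 12 neutrophil genes, 11 were tested and 6 were called lower (median -1.18), with sums of 16.31 to 16.33 and 16.07 to 16.14. On WT replicates 1 to 3 the neutrophil sums were 16.32, 16.33 and 16.31, which is not the order of the matrix genes. All of the stromal and macrophage genes were well above background in at least 1 genotype, as the probe filter requires of every gene tested.

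Other cell types moved the other way or were not called. Of 10 endothelial genes, 3 were called higher (Cdh5, Cldn5 and Esam), with sums of 14.89 to 15.05 in WT and 15.35 to 15.44 in Zip13-KO. Of 6 smooth muscle and pericyte genes, 2 (Cspg4 and Rgs5) were called higher, with sums of 13.80 to 14.33 and 14.36 to 14.41. Of the 10 adipocyte genes, 3 were called higher: Lipe, Plin1 and Pparg. For lymphocytes, 0 of 10 genes were called (7 lower at an unadjusted p under 0.05 in limma, 3 in the methods' t-test), with sums of 15.91 to 16.17 and 15.46 to 15.65. For skeletal muscle 0 of 11 were called (1 higher unadjusted in limma, 0 in the methods' t-test), with sums of 11.04 to 12.17 and 11.43 to 13.25, and for mammary epithelium 0 of 8 (1 higher unadjusted, 0 in the methods' t-test), with sums of 8.26 to 9.53 and 8.28 to 9.56. The part of any of these cell types in the matrix gene values was not tested.

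**Figure D4:**
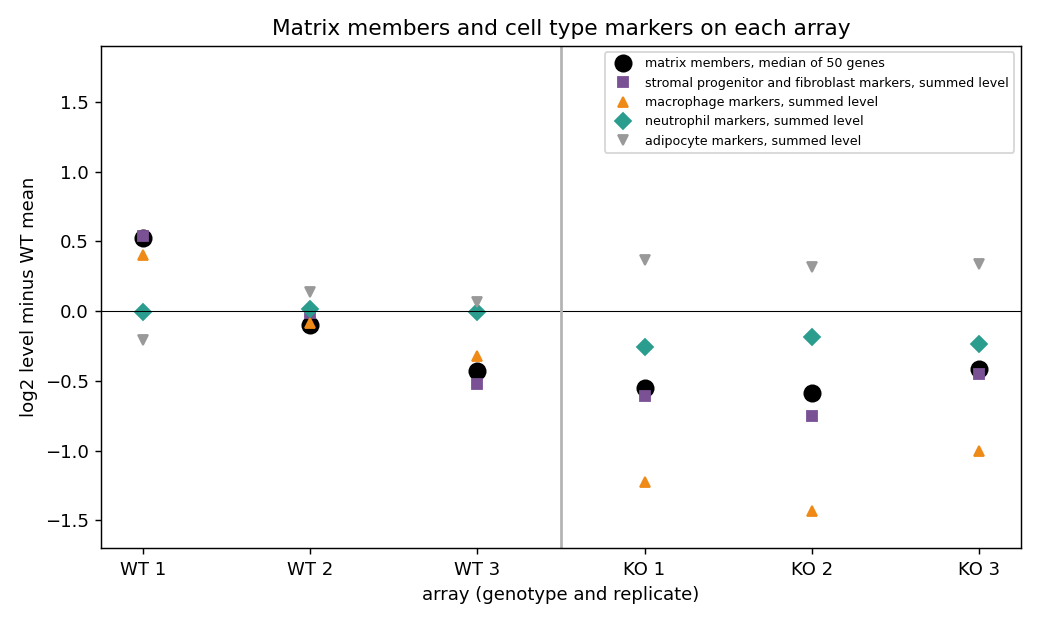
Median of the 50 matrix genes and summed level of 4 marker lists on each array, each in log2 relative to its WT mean. The matrix genes, the stromal markers and the macrophage markers are all highest on WT replicate 1 and lie below 0 on WT replicate 3 and the Zip13-KO arrays, and the adipocyte markers are highest on the Zip13-KO arrays.

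The substrates of these enzymes gave a mixed picture. Of 11 fibrillar and fibril-associated collagens tested, 1 was called lower, Col12a1 (-1.41, adjusted p = 0.031), and the median was -0.67 with 10 of 11 below 0. Col1a1 and Col3a1 are also on the stromal marker list. Of 17 elastic fibre and microfibril genes, 14 were below 0 (median -0.91) and 1, Emilin2, was called lower (-1.37, adjusted p = 0.0213). Of 17 basement membrane genes, Col4a3, with 1 of 3 WT arrays well above background, was called higher (1.73, adjusted p = 0.0214, but 0.36 to 0.51 with other background corrections) and Col18a1 lower (-1.02, adjusted p = 0.0154), and the median was 0.13. Among 7 matrix proteoglycans, Ncan was called higher (2.09, adjusted p = 0.0203, and 1.28 with normexp) and Vcan, the versican that ADAMTS proteases cut, was called lower (-1.59, adjusted p = 0.0264). Of 13 other genes of collagen processing, Colgalt2, a collagen galactosyltransferase, was called higher (0.86, adjusted p = 0.0143, but 0.25 to 0.39 and not called with other background corrections) and Pcolce2 lower (-0.67, adjusted p = 0.0433). Over all genes tested, 8.38% were called lower and 10.3% higher. Called lower were 9.09% of these collagens and 5.88% each of the elastic fibre and basement membrane genes. For the proteoglycans it was 14.3%, and for the other processing genes 7.69%. In each list at most 1 gene was called in each direction, so these counts do not set the lists apart from all genes. Each of the calls in these lists was lost when some single array was left out. For Colgalt2 this was Zip13-KO replicate 1 (adjusted p = 0.0556), for Col18a1 Zip13-KO replicate 2 (adjusted p = 0.0572), for Col12a1 and Col4a3 any Zip13-KO replicate (adjusted p = 0.06 to 0.0971), and for Emilin2 and Ncan WT replicate 2 or Zip13-KO replicate 1 or 2 (adjusted p = 0.0532 to 0.0744). Vcan was lost without WT replicate 2 or any Zip13-KO replicate (adjusted p = 0.0676 to 0.0806), and Pcolce2 without any array but WT replicate 3 (adjusted p = 0.0663 to 0.128).

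The plasminogen system activates several MMPs through plasmin. Of its 7 genes tested, 2 were called lower, the tissue activator Plat (-1.31, adjusted p = 0.0326) and the urokinase receptor Plaur (-1.06, adjusted p = 0.00681), with a median of -0.58 over the 7. These 2 are 28.6% of the list, and 8.38% of all genes tested were called lower. Plaur was called whichever array was left out, and Plat was not called without WT replicate 2 or any Zip13-KO replicate (adjusted p = 0.0649 to 0.0997).

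Where a gene had more than 1 kept probe, the probes mostly had the same sign: for 14 such genes, all probes were below 0 for 11, all above 0 for 2 and of both signs for 1, Adamts8. With no filter on dim probes, 21365 genes were tested, and Adamts13, Loxl4, Mmp19, Mmp3, Timp1 and Timp2 missed the threshold (adjusted p = 0.0536 to 0.0945). With each array scaled to its 75th percentile, Adamts13, Loxl4 and Timp2 missed it (adjusted p = 0.0503 to 0.055). With the methods' t-test and adjustment only Mmp12 and Mmp25 were called. The first of the 2 position numbers in the array barcode is 1 for the 3 WT arrays and Zip13-KO replicate 1 and 2 for the other 2 Zip13-KO arrays. With it as a term, which leaves Zip13-KO replicate 1 against the WT arrays, 0 matrix genes were called by limma (8 lower and 2 higher at an unadjusted p under 0.05), Mmp12 had an adjusted p of 0.0578, and Timp1 had a log2 fold change of -3.24 (adjusted p = 0.151).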

How the data were processed

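Total RNA from iWAT was labelled with a single dye and hybridized to 6 Agilent 8x60K arrays. The deposited scanner files hold Feature Extraction 11.5.1.1 output per spot, and the processed signal used here is an intensity on a linear scale, background-subtracted by the authors' software. The deposited values table holds quantile normalized log2 values, whose order within each array is that of the median signal before background subtraction.

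Control and outlier spots were left out, the log2 signals of each probe's spots were averaged, and quantile normalization was applied between arrays. Of 55681 probes, 28331 were named through RefSeq accessions. A probe was kept when at least 50% of its spots were well above background on all 3 arrays of a genotype, and each gene was read by its brightest kept probe. Genotypes were compared with limma 3.58.1 (lmFit, eBayes) in R 4.3.3, two-sided, with Benjamini-Hochberg adjustment over 15307 genes. An exact permutation test of 3 arrays against 3 cannot go below 0.1, so none was used. The study's own test combined a t-test with a test on median ratios. It was not rebuilt, and the methods' t-test named here is the plain t-test alone, used as an alternative.

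The genes and lists were chosen with earlier results of these data known. Named genes are the called ones, the 3 largest changes each way, and the brightest, highest and lowest of each class, and called genes of each companion list. Others were named after their values were seen. No probe sequence was used, and the promoter sequences are from RefSeq (GRCm38.p6). Alternatives covered scaling, background correction, the probe filter, the test, thresholds, leaving out each array, a replicate block and slide position.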

Additional observations from a re-analysis of the deposited data

How the results depend on the processing

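The counts below follow the alternatives, of which the slide position term was chosen after seeing the data. The files hold no mean signal, so normexp and the uncorrected signal used the median signal. The count of matrix genes called higher (1) was 0 with normexp, without background correction, with the deposited table, with the methods' t-test after adjustment, with adjusted p under 0.01, and with the slide position term, and 2 with no fold change threshold. The count called lower (8) was 2 without the filter, 2 with the methods' t-test after adjustment, 1 with adjusted p under 0.01 and 0 with the slide position term. Leaving out each array gave 0 to 2 higher and 2 to 21 lower. Over all genes, the counts were 1007 higher and 721 lower with the methods' t-test after adjustment, 2951 and 2330 with no fold change threshold, 707 and 505 at adjusted p under 0.01, and 0 and 7 with the slide position term. Leaving out each array gave 961 to 1671 higher and 782 to 1455 lower.

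With the replicate number as a block, 5 matrix genes were lower and 0 higher, and 1278 genes were higher and 1051 lower over all. Loxl4, Mmp15, Mmp3 and Timp2 were lost. Same-numbered arrays did not deviate together (r = -0.02, 0.04 and -0.08), so the numbers were not taken to pair the samples.

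No called matrix gene changed sign under any alternative. Genes not called did: Mmp17 was -0.020 with 75th percentile scaling and -0.055 with the slide position term, and Adamts12 was 0.00044, 0.0066 and 0.011 and Adamts17 -0.045, -0.024 and -0.019 with normexp, no background correction and the deposited table. Adamts8 was 0.020 with the mean of its probes. Leaving out each array gave ranges across 0 for Adamts12 (-0.20 to 0.075), Adamts17 (-0.35 to 0.53), Mmp17 (-0.077 to 0.069), P4ha3 (-0.37 to 0.32), Lox (-0.60 to 0.23), Plod3 (-0.14 to 0.082), Serpinh1 (-0.53 to 0.023), P4ha2 (-0.73 to 0.18), P4ha1 (-0.0038 to 0.52) and Mmp11 (-0.0061 to 0.32). The cause was not tested. Mmp14 was called lower in every alternative of scaling and background correction and with the trended prior. The 3 arrays per genotype and the signal over background limit the precision of the dim genes Mmp7, Mmp8 and Adamtsl2.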

Other observations

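Of 10 ADAM proteases tested, 3 were called lower: Adam8, an ADAM known from leukocytes (-1.87, adjusted p = 0.00274), Adam23 (-0.91, adjusted p = 0.0405) and Adam19 (-0.61, adjusted p = 0.0247). Adam8 was called whichever array was left out, Adam23 was lost without WT replicate 2 or any Zip13-KO replicate (adjusted p = 0.0683 to 0.112), and Adam19 was called without WT replicate 3 but not without any other array (adjusted p = 0.0377 to 0.0817, the lowest of these with a change under the fold threshold). The median of the 10 was -0.28, with 8 below 0. Of the 10, 30% were called lower, against 8.38% of all genes tested. Adam12 was higher on every Zip13-KO array, with a difference under the fold threshold (0.45, adjusted p = 0.0362), and Adam17 gave 0.12 (adjusted p = 0.63).

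Of 9 cathepsins, lysosomal proteases that are abundant in macrophages, 3 were called lower: Ctss (-1.30, adjusted p = 0.00459), Ctsc (-0.99, adjusted p = 0.0168) and Ctsh (-0.98, adjusted p = 0.022). Ctss was called whichever array was left out, and Ctsc and Ctsh were lost without Zip13-KO replicate 1 or 2 (adjusted p = 0.06 to 0.0744). The median of the 9 was -0.53, with 8 below 0 and Ctsd at 0.17 (adjusted p = 0.447). Of the 9, 33.3% were called lower, against 8.38% of all genes tested. The macrophage markers were lower on the same arrays, and their part in these values was not tested.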
